A study of Mus musculus with 8 samples.

Results

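The 10 genes described here encode CC chemokines, small secreted proteins that steer leukocytes through receptors of the Ccr family. They were taken as all probe sets whose annotated symbols include Ccl2, Ccl5, Ccl7, Ccl8, Ccl11, Ccl17, Ccl20, Ccl22, Ccl24 or Ccl27a, which gave 12 of the 45101 probe sets in the table and 10 of its 19324 annotated gene symbols. Of these 12, Ccl27a had 3 and each other gene had 1. Total RNA of mouse skin was hybridised to 8 Affymetrix 3' expression arrays, in a Balb/c model of atopic dermatitis made by painting the back with the contact sensitizer DNCB. The sham group (n = 2) was labelled as having had neither DNCB nor HY209, although its protocol fields repeat the text of the DNCB model, which bears on each comparison with sham. The DNCB group (n = 3, titled DNCB_HY209(-)) had DNCB over 15 days with vehicle in the final 7. The DNCB+HY209 group (n = 3, titled DNCB_HY209(+)) had the same DNCB course with a gel of 5% HY209 in place of the vehicle. Nothing in the labels states that each array is a different mouse, so the p-values measure only the spread between these samples. No age, sex or genotype beyond the Balb/c strain is used here.

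CC chemokines carry a pair of adjacent cysteines near the N terminus, and several are induced in inflamed skin by cytokines that act through NF-kB or STAT factors. Ccl27a differs from most of them in that resting keratinocytes make it constitutively and that it draws Ccr10-bearing memory T cells to the epidermis. Ccl17 and Ccl22, ligands of Ccr4, are classic chemokines of allergic skin, while Ccl11 and Ccl24 are eotaxins that recruit eosinophils through Ccr3. Ccl2, Ccl7 and Ccl8 belong to the monocyte chemoattractant group, Ccl5 attracts T cells and other leukocytes, and Ccl20 is the ligand of Ccr6.

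The arrays read the Ccl27a locus together with annotated copies. On 2 of its 3 probe sets the annotation lists 5 symbols, namely Ccl27a, Ccl27b, Gm2506, Gm13306 and LOC100861978, so their signal cannot be divided among these copies. RefSeq's windows (build GRCm38.p6) around a start site of Ccl27a and one of Ccl27b matched at 286 of 288 aligned bases (99.3%). This was the best ungapped alignment over the windows of these genes. Gm2506, Gm13306 and LOC100861978, and the bases that the probes read, were not compared. The 250 bases before a Ccl27a start (chr4:41770213-41770462, minus strand) are shown because Ccl27a was the member that changed. Those before the Ccl8 start (chr11:82114935-82115184, plus strand) are shown because Ccl8 was a readily measured member that did not pass the test. Capitals mark matches, on either strand, to the AP-1 motif TGANTCA, the TATA box TATAAA, the GAS motif TTCNNNGAA or the NF-kB motif.
Ccl27a: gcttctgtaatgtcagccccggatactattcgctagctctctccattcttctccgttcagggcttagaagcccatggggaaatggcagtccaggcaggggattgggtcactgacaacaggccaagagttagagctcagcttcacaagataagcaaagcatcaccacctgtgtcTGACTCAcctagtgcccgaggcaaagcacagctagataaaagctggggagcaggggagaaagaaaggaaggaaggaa
Ccl8: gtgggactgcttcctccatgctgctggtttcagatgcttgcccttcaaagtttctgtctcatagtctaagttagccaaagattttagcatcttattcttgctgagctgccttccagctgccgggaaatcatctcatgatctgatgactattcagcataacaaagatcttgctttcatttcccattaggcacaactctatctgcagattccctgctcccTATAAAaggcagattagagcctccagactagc
The Ccl27a window held 1 AP-1 match, and the Ccl8 window held 1 TATA box match. Among 32851 windows of this length, 6.75% held the AP-1 motif, 12.4% the TATA box, 7.02% the GAS motif and 7.25% the NF-kB motif. RefSeq's table had windows for 5 of the 10 genes, 7 windows in all, and the other two Ccl27a windows held none of the 4 motifs. A match is a run of letters, and binding was not measured here.

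Signals are the authors' log2 values, so a difference of 1 is a doubling, and a value at or below the median of its array (4.07 to 4.22) is called low here. A probe set was tested if it lay above the median on at least 2 arrays, which held for 6 of the 12 member probe sets and for 24675 in all. The tested ones were Ccl2, Ccl5, Ccl8, Ccl20, Ccl24 and 1 of the shared Ccl27a probe sets. Ccl7, Ccl11, Ccl17, Ccl22 and the other two Ccl27a probe sets were low on all 8 arrays, so they are given as values, with no call. Ccl5 was low on both sham arrays and above the median on all 6 others, so it entered the test only through the DNCB-treated groups.

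**Figure D1:**
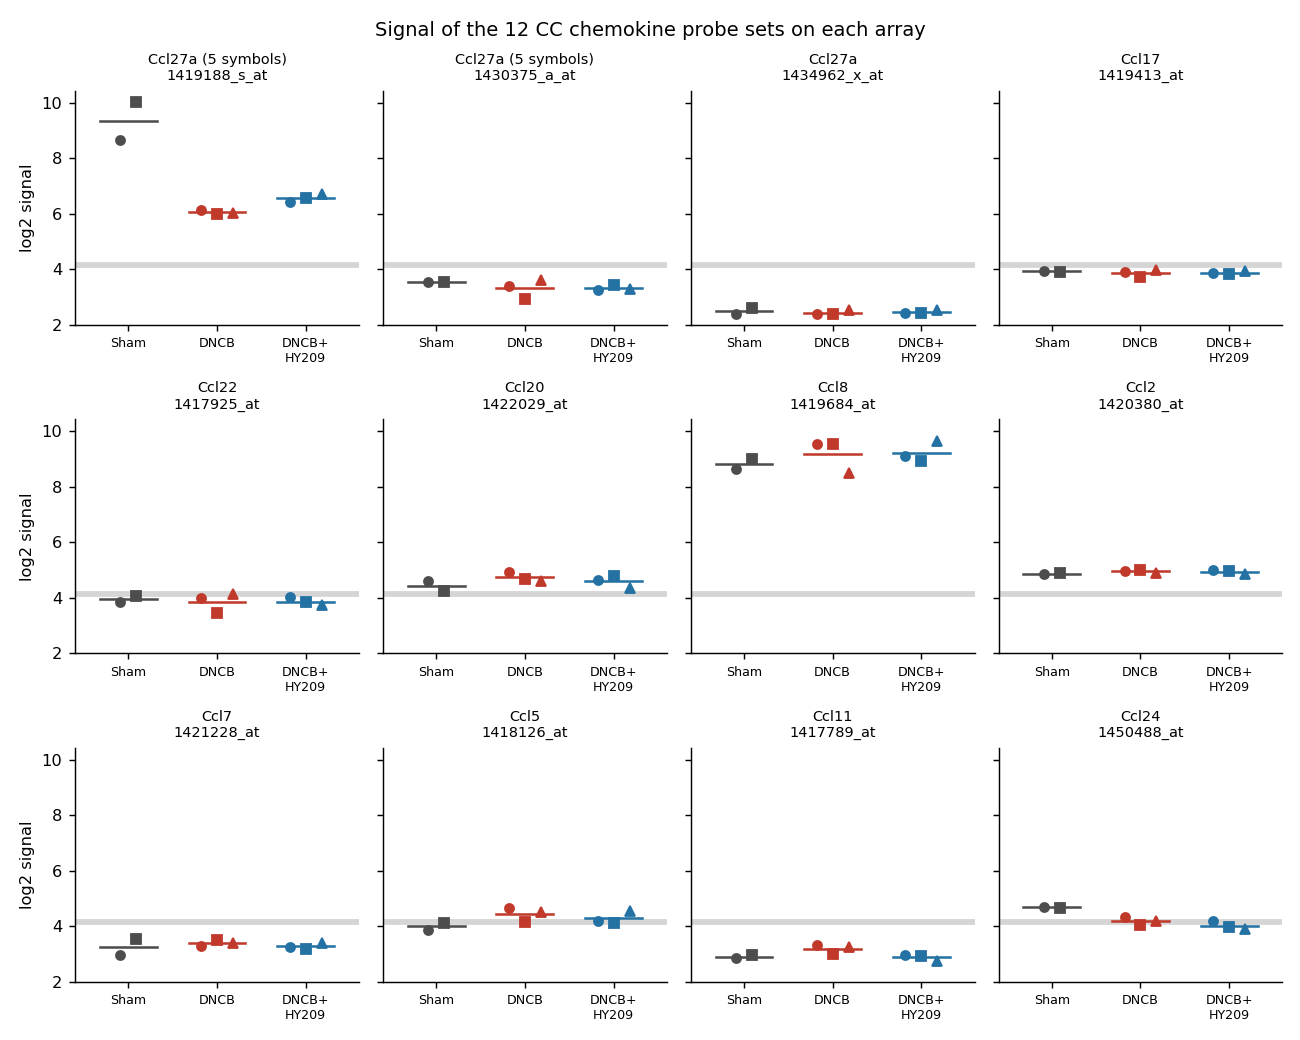
Log2 signal of each of the 12 CC chemokine probe sets on the 8 arrays, with circles, squares and triangles for arrays 1, 2 and 3 of a group, a line at each group mean and a grey band for the range of array medians. The upper Ccl27a probe set lies between 8.67 and 10.05 in sham and between 5.999 and 6.70 in the other groups, Ccl8 lies between 8.50 and 9.67 in every group, and the other probe sets lie at 5.00 or below.

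The first comparison asked what DNCB changed. Ccl27a fell, and none of the other tested members passed the test. On the probe set shared with its copies, the log2 signal of Ccl27a was 8.67 and 10.05 in sham, 6.13, 5.999 and 6.03 in DNCB, and 6.44, 6.57 and 6.70 in DNCB+HY209. All 6 DNCB-treated arrays thus lay below both sham arrays, and the DNCB arrays lay close to each other. The group means were 9.36 ± 0.97 (SD, n = 2) in sham and 6.05 ± 0.07 (n = 3) in DNCB. The log2 difference was -3.31 (SE 0.36, 95% interval, unadjusted here and below, -4.12 to -2.49, adjusted p = 0.00756), or 9.90-fold lower. By size of the moderated t it stood at place 20 of the 24675 probe sets tested. Of the 6 tested members 1 fell and 0 rose, where limma called 0.956% of all probe sets (236, with 0.766% higher and 0.190% lower). The median difference of the 6, with Ccl5 among them, was 0.20, beside 0.11 for all probe sets tested.

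The other two Ccl27a probe sets did not carry this difference. The second shared probe set had signals of 3.52 and 3.53 in sham, 3.39, 2.92 and 3.62 in DNCB, and 3.25, 3.42 and 3.28 in DNCB+HY209. The probe set annotated to Ccl27a alone ran from 2.38 to 2.59 over all 8 arrays. Both were low throughout, so the fall of Ccl27a rests on 1 probe set.

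The fall of Ccl27a kept its direction with each of the 8 arrays left out in turn, with differences from -4.00 to -2.62. The ends of this range were the fits without sham array 1 and without sham array 2. These fits kept a single sham array and took its spread from the other groups, so they cannot test the call against the spread of sham. With each DNCB or DNCB+HY209 array left out, the fall was called, at adjusted p up to 0.0417. The bacterial spike-in level, a measure of how much control RNA was seen beside the sample's own, was 11.35 and 12.01 in sham, 11.09, 9.67 and 11.21 in DNCB, and 11.26, 10.36 and 10.30 in DNCB+HY209. With spike-in signal added to the model the difference was -3.12 and missed the threshold (adjusted p = 0.0653). Both sham arrays had higher spike-in levels than all others, so that fit cannot fully separate spike-in level from group.

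Keratinocytes are the known source of Ccl27a, and their defining keratins were bright on every array. Krt14 and Krt5, keratins of the basal layer, had log2 differences of 1.24 (adjusted p = 0.196) and 0.18 (adjusted p = 0.83) for DNCB against sham. Krt1 and Krt10, keratins of the suprabasal layers, had differences of 1.92 (adjusted p = 0.139) and 1.26 (adjusted p = 0.502). The keratinocyte list as a whole had 0 of 7 probe sets called, a median difference of 1.24 and mean signals of 11.49 to 11.84 in sham and 12.27 to 13.45 in DNCB. The hair follicle list moved the other way, with 1 of 7 probe sets lower (Krtap3-1, by -1.97, adjusted p = 0.0473) and a median of -1.97. Its mean signal was 7.42 to 9.68 in sham, 5.33 to 7.69 in DNCB and 6.18 to 8.46 in DNCB+HY209. Its higher sham value was on array 1 and that of Ccl27a on array 2. The adipocyte list had 0 of 6 probe sets called and a median of -1.09. Its mean was higher in sham (6.26 to 7.14) than in DNCB (4.53 to 6.10) and DNCB+HY209 (4.53 to 5.40), without overlap, as for Ccl27a. Its higher sham value was on array 1, as for the hair follicle list. The neutrophil list had 2 of 6 probe sets higher, those of S100a8 and S100a9, and its mean was 4.29 on both sham arrays, 6.56 to 7.73 in DNCB and 5.65 to 6.74 in DNCB+HY209. The endothelial list had 1 of 5 probe sets higher and a median of 1.83. Its mean was 4.63 to 4.78 in sham, 5.56 to 6.37 in DNCB and 4.97 to 5.52 in DNCB+HY209. The skeletal muscle list had 1 of 8 probe sets higher (adjusted p = 0.00743) and a median of 0.34. Its means overlapped between sham (9.24 to 10.66) and DNCB (9.80 to 12.04). The part of hair follicle, adipocyte, neutrophil, endothelial or muscle content in the Ccl27a difference was not tested. In whole skin, fewer cells of a type and less RNA per cell cannot be told apart.

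**Figure D2:**
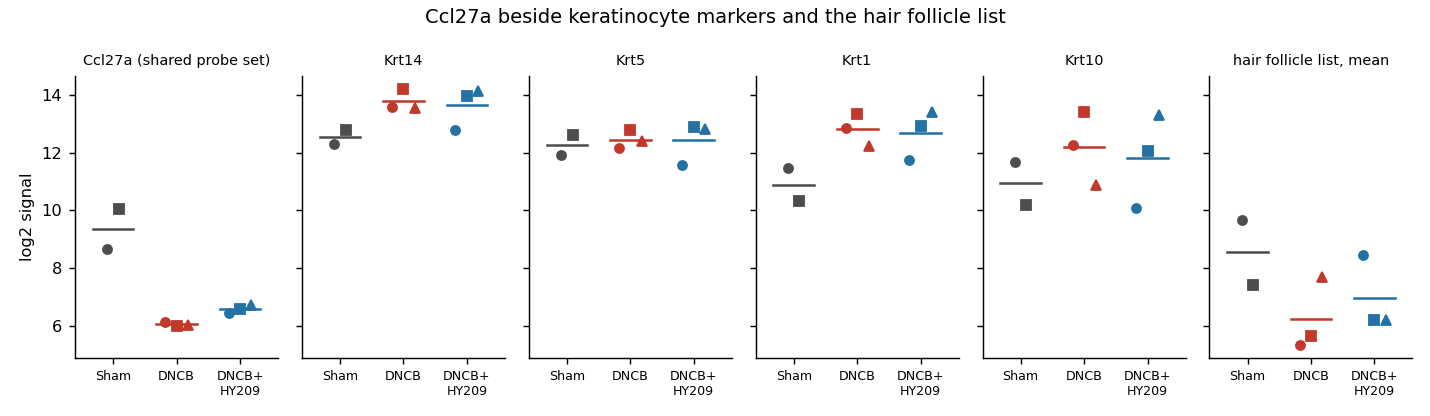
Log2 signal on each array for the bright Ccl27a probe set, the keratinocyte markers Krt14, Krt5, Krt1 and Krt10, and the mean of the 7 hair follicle genes, with symbols and lines as in the plot of all members. Ccl27a is the one panel in which all sham arrays lie above all other arrays (8.67 and 10.05 against at most 6.70), and the hair follicle mean overlaps between groups. The adipocyte mean, not drawn here, also lay higher in sham (6.26 to 7.14) than on all other arrays (at most 6.10).

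Among the monocyte chemoattractants, Ccl8 was the one with a strong signal. It measured 8.64 and 9.01 in sham, 9.55, 9.54 and 8.50 in DNCB, and 9.12, 8.92 and 9.67 in DNCB+HY209. DNCB array 3 was the lowest of all, so the groups overlapped, and the difference of DNCB against sham was 0.37 (SE 0.37, 95% interval -0.46 to 1.20, adjusted p = 0.61). DNCB array 3 also had the highest ratio of 3' to 5' Gapdh signal, a sign of shortened RNA, with 7.35 against 2.10 to 4.46 on the other arrays. With that ratio as a covariate the limma difference of Ccl8 was 0.36 (adjusted p = 0.455). Of the DNCB arrays, array 3 had the lowest macrophage and monocyte mean (5.89 against 6.70 and 7.05). It also had the highest hair follicle mean (7.69 against 5.33 and 5.64). The parts of RNA state and cell content in its Ccl8 signal were not tested. Ccl2 lay just above the array medians at 4.86 and 4.88 in sham, 4.96, 5.00 and 4.90 in DNCB, and 4.99, 4.95 and 4.84 in DNCB+HY209. The DNCB arrays were all above the sham arrays, but by a difference of only 0.09 (SE 0.17, 95% interval -0.30 to 0.47, adjusted p = 0.807). Ccl7 was low on all arrays, at 2.97 to 3.54. The macrophage and monocyte markers, cells that Ccl2 attracts, had 1 of 17 probe sets higher in DNCB, 1 of the 3 probe sets of the complement gene C1qb (1.97, adjusted p = 0.0471), with a median of 0.84.

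Ccl5 measured 3.87 and 4.12 in sham, 4.65, 4.14 and 4.52 in DNCB, and 4.20, 4.11 and 4.55 in DNCB+HY209. Its DNCB arrays lay above sham by 0.44 on average (SE 0.23, 95% interval -0.08 to 0.96, adjusted p = 0.377). Ccl20 measured 4.59 and 4.26 in sham and 4.94, 4.69 and 4.59 in DNCB, with 4.63, 4.80 and 4.34 in DNCB+HY209. Its lowest DNCB array and its higher sham array were equal at this rounding, and the difference was 0.32 (SE 0.22, 95% interval -0.18 to 0.81, adjusted p = 0.472).

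The Ccr4 ligands of allergic skin lay below the array median on all arrays. Ccl17 ran from 3.70 to 3.97 and Ccl22 from 3.43 to 4.12 over the 8 arrays, with DNCB minus sham differences of -0.07 and -0.10 and overlapping groups. In a fit without the filter their adjusted p was 0.879 and 0.87. Ccr4 itself, their receptor, was low on all arrays too. Small changes of such probe sets could not have been seen here.

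Neither eotaxin gave a call. Ccl24 measured 4.69 and 4.67 in sham, 4.33, 4.04 and 4.17 in DNCB, and 4.18, 3.97 and 3.90 in DNCB+HY209, so both sham arrays lay above all others. The difference for DNCB was -0.50 (SE 0.19, 95% interval -0.92 to -0.07, adjusted p = 0.278). Its signal was low on 1 DNCB array and on all 3 DNCB+HY209 arrays, so these differences are approximate. Ccl11 was low throughout, at 2.83 and 2.96 in sham, 3.33, 2.98 and 3.23 in DNCB, and 2.95, 2.91 and 2.74 in DNCB+HY209. The eosinophil markers had 0 probe sets that passed the filter, and the mean of the 4 genes with a probe set ran from 2.41 to 2.91.

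Across the 12 member probe sets, the DNCB and sham arrays did not overlap for 6, higher in DNCB for 4 (Ccl2, Ccl5, Ccl11 and Ccl20) and lower for 2 (Ccl24 and Ccl27a). Of the 6 that were tested, 5 did not overlap. These include Ccl5, which entered the test only through the DNCB-treated groups, so its direction is partly set by the filter. Among all tested probe sets 33.6% did not overlap, 21.0% higher and 12.6% lower.

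The second comparison asked what the HY209 gel changed under continued DNCB. By limma, 0 of the 6 tested members and 0 of all 24675 probe sets passed (0% called; 307, or 1.24%, at an unadjusted p under 0.05, with 0 of the 6 members among them). Ccl27a was higher with HY209 on all arrays, 6.44 to 6.70 against 5.999 to 6.13, at means of 6.57 ± 0.13 (SD, n = 3) and 6.05 ± 0.07 (n = 3). The difference of 0.52 (SE 0.32, 95% interval -0.21 to 1.24, adjusted p = 1) did not pass the test, whose SE takes in the wide spread of sham. Fitted on the 2 groups alone the SE was 0.18 and the adjusted p again 1. Over the alternatives the difference ran from 0.42 to 0.58. In the same comparison 7 of 9 fibroblast probe sets were lower with HY209 on all arrays, at list means of 8.37 to 8.58 against 8.85 to 10.01 in DNCB. Of the endothelial probe sets 3 of 5 were lower in the same way, at means of 4.97 to 5.52 against 5.56 to 6.37. The macrophage and monocyte list had 2 of 17 lower in this way, with a median of -0.58. Of all tested probe sets 2.04% were lower and 2.83% higher without overlap. The hair follicle list went up, with a median of 0.46 over 7 probe sets (0.07 to 1.41), though the arrays overlapped for each. The adipocyte list went down, with a median of -0.50 (-1.02 to -0.33), also with overlap. None of these lists had a probe set called, and their part in the Ccl27a difference was not tested.

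The remaining tested members differed by less. Ccl8 differed by 0.04 (95% interval -0.71 to 0.78), Ccl2 by -0.03 (-0.37 to 0.32), Ccl5 by -0.15 (-0.62 to 0.32), Ccl20 by -0.15 (-0.59 to 0.29) and Ccl24 by -0.16 (-0.55 to 0.22), and in each the arrays overlapped. The sign for Ccl8 was not stable, since it was -0.31 when DNCB array 3 was dropped, -0.18 when DNCB+HY209 array 3 was, and -0.20 with the Gapdh ratio as a covariate. The low probe set of Ccl11 was lower with HY209 on all arrays, by 0.31 at the mean. In this comparison 2 of the 12 member probe sets did not overlap, and 1 of the 6 tested, beside 4.87% of all tested probe sets (2.83% higher and 2.04% lower).

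**Figure D3:**
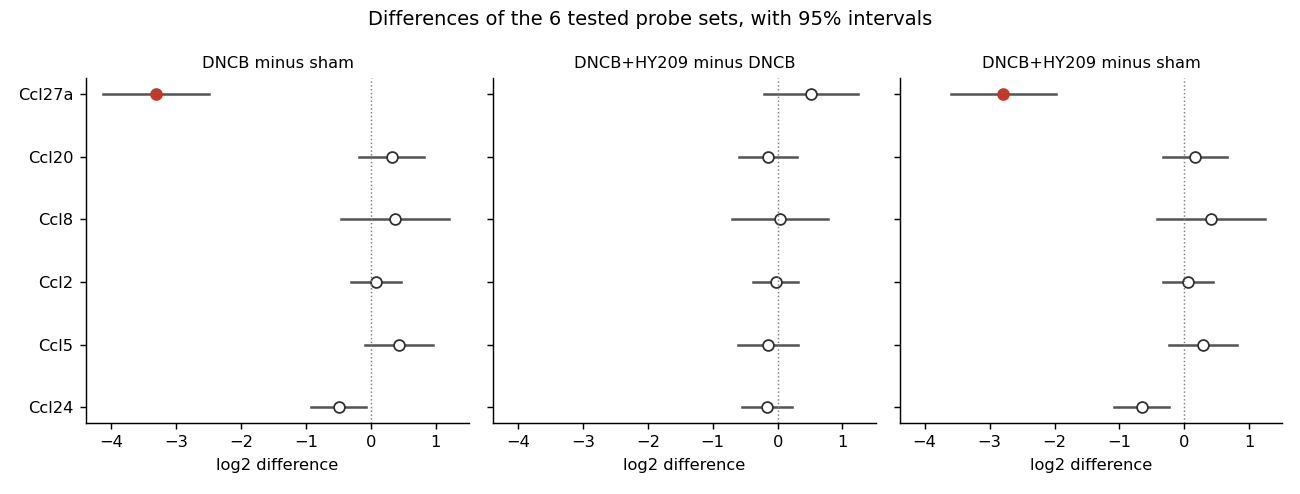
Log2 differences of the 6 tested member probe sets in the 3 comparisons, as points with 95% intervals from limma, with filled points for an adjusted p under 0.05. Ccl27a is filled at -3.31 and -2.79 against sham and open at 0.52 for HY209 against DNCB, and all other points are open and lie between -0.66 and 0.44.

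The third comparison set DNCB+HY209 against the same sham arrays, which the first comparison also used. Ccl27a was lower by 2.79 (log2 difference -2.79, SE 0.36, 95% interval -3.60 to -1.98, adjusted p = 0.0257), or 6.91-fold lower. It was the 1 member called of 6 tested, beside 0.267% of all probe sets (66, with 0.207% higher and 0.0608% lower). The direction held with each array left out, at -3.48 to -2.10, but the call did not. Leaving out sham array 2 gave the difference of -2.10, with a single sham array left. Omitting DNCB array 1 gave an adjusted p of 0.0593, and omitting DNCB array 3 gave 0.0502. The adjusted p was 0.166 when the second DNCB+HY209 array was dropped and 0.091 when the third was. It was 0.0758 when only these 2 groups were fitted and 0.187 with spike-in signal in the model, where the difference was -2.60.

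Ccl24 had the next largest difference from sham, -0.66 (SE 0.19, 95% interval -1.09 to -0.23, adjusted p = 0.17). The rest of the tested members lay between 0.06 for Ccl2 and 0.41 for Ccl8, with overlapping arrays and adjusted p from 0.491 to 0.86. Groups did not overlap for 3 of the 12 member probe sets, Ccl24 and both shared Ccl27a probe sets, all lower with DNCB+HY209. Of the 6 tested this was 2, beside 40.8% of all probe sets (26.7% higher and 14.2% lower).

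The rest of the CC family was read from lists of further ligands and of receptors. Of 12 other CC chemokines with a probe set, 9 were tested on 8 probe sets, and 0 passed in any of the 3 comparisons. Their median difference was 0.23 for DNCB against sham, -0.12 for DNCB+HY209 against DNCB and 0.02 for DNCB+HY209 against sham. These medians include Ccl12, which was above the array median only on 2 DNCB arrays. They also include the dimmer Ccl6 probe set, which was low on both sham arrays (4.08 and 4.03). That probe set passed the filter only through DNCB arrays 1 and 2 and DNCB+HY209 array 3 (5.17, 5.25 and 4.93). Ccl28, a mucosal chemokine that shares the receptor Ccr10 with Ccl27a, measured 4.40 and 4.83 in sham, 4.19, 3.72 and 4.31 in DNCB, and 4.32, 4.36 and 3.87 in DNCB+HY209. Its sham arrays lay above all others, with a difference of -0.54 for DNCB (SE 0.26, adjusted p = 0.35). Ccl12, a monocyte chemoattractant of mice, measured 2.92 and 3.46 in sham, 4.36, 4.23 and 3.44 in DNCB, and 3.56, 3.57 and 3.94 in DNCB+HY209. It was low on all arrays but DNCB arrays 1 and 2, and its DNCB+HY209 arrays lay above sham.

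Ccl6 and Ccl9, chemokines made by myeloid cells, varied among arrays of a group more than between groups. The brighter Ccl6 probe set measured 6.18 and 5.66 in sham, 7.68, 6.86 and 4.31 in DNCB, and 6.19, 5.74 and 7.61 in DNCB+HY209. The brighter Ccl9 probe set measured 4.99 and 5.21 in sham, 6.32, 6.34 and 4.74 in DNCB, and 5.15, 4.94 and 6.54 in DNCB+HY209. As with Ccl8, DNCB array 3 was the lowest of the 8 for both.

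**Figure D4:**
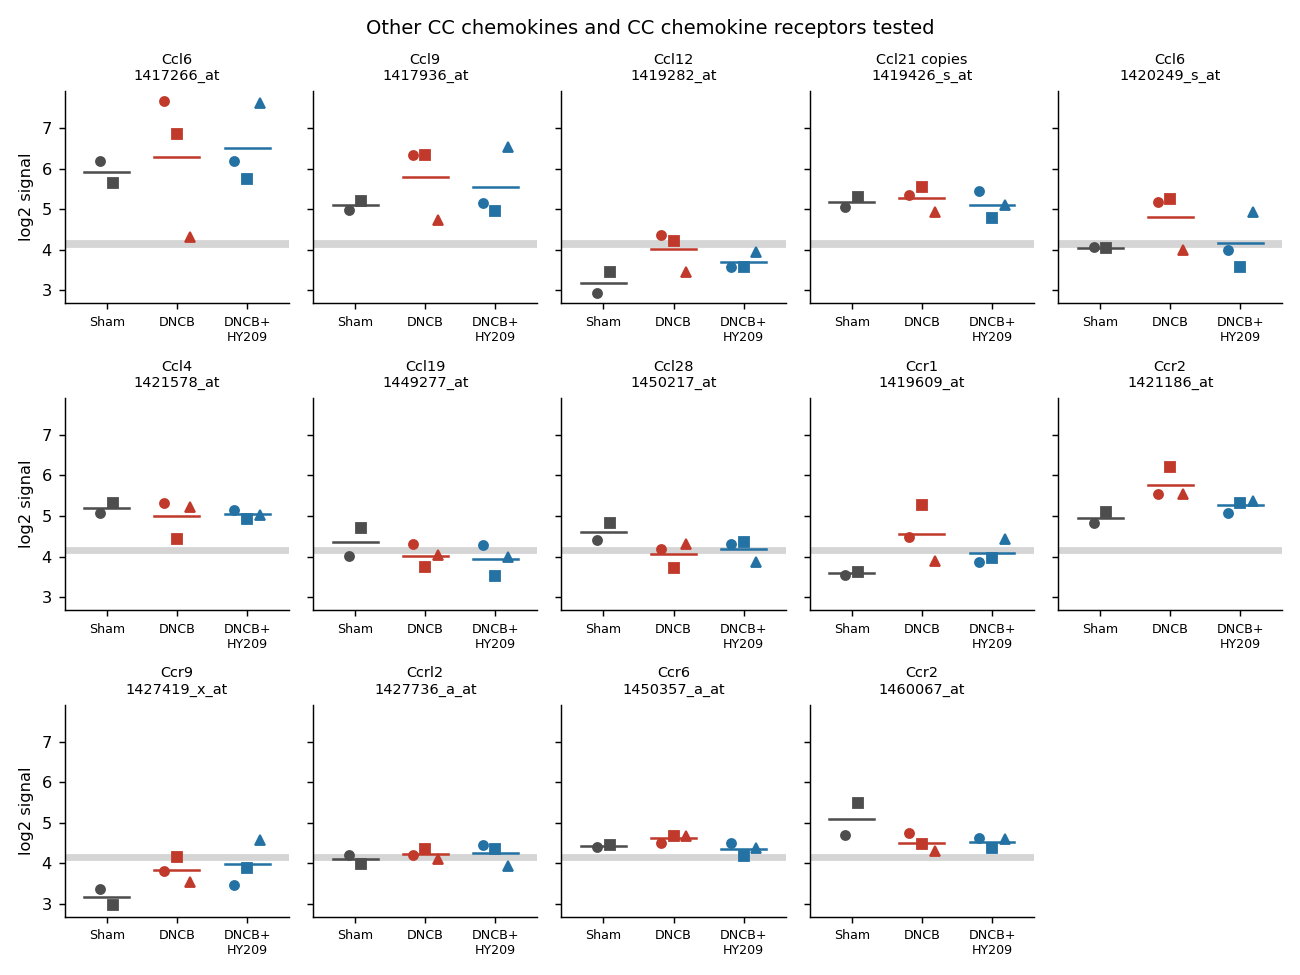
Log2 signal on each array for the 8 probe sets of other CC chemokines and the 6 of CC chemokine receptors that passed the filter, with symbols, lines and grey band as in the plot of all members. Ccl6 and Ccl9 show the widest spread within groups, with DNCB array 3 (triangle) lowest, and the upper Ccr2 probe set is higher in DNCB (5.53 to 6.21) than in sham (4.82 and 5.09).

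Of 10 CC chemokine receptors with a probe set, 5 were tested on 6 probe sets, and 0 passed in any comparison. Ccr2, the receptor of Ccl2 and Ccl7, measured 4.82 and 5.09 in sham, 5.53, 6.21 and 5.54 in DNCB, and 5.08, 5.32 and 5.38 in DNCB+HY209. DNCB thus lay above both other groups on all arrays, by 0.81 over sham (SE 0.25, adjusted p = 0.201), and HY209 differed from DNCB by -0.50 (SE 0.23, adjusted p = 1). A second tested Ccr2 probe set went the other way, at -0.58 for DNCB against sham (adjusted p = 0.326). Ccr1, a receptor of Ccl5 and Ccl7, differed by 0.96 (SE 0.36, adjusted p = 0.275) from low sham signals of 3.55 and 3.63. Ccr9, the receptor of Ccl25, differed by 0.68 (SE 0.34, adjusted p = 0.361) on 1 probe set, while its 4 other probe sets did not pass the filter. Both the Ccr1 and the Ccr9 probe set were low on the sham arrays and passed the filter only through DNCB-treated arrays, 3 for Ccr1 and 2 for Ccr9, so their differences carry the filter's direction.

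Receptors of the skin-homing and allergic members gave low signals. Ccr10, the receptor of Ccl27a, was low on all arrays at 3.55 to 3.89, as were Ccr4, Ccr3, Ccr7 and Ccr8, which binds Ccl8 in mice. Ccr6, the receptor of Ccl20, differed by 0.20 for DNCB against sham (SE 0.18, adjusted p = 0.587). It measured 4.39 and 4.46 in sham, 4.51, 4.68 and 4.68 in DNCB, and 4.50, 4.19 and 4.38 in DNCB+HY209. Its DNCB+HY209 arrays thus all lay below DNCB, as for the bright Ccr2 probe set. These were 2 of the 6 receptor probe sets, beside 2.04% of all tested probe sets. Of the T cell markers, 4 of 6 genes with a probe set were tested on 5 probe sets, with 0 called and a median of -0.17 for DNCB against sham. Of the 4 atypical receptors, which bind chemokines without G protein signalling, 3 were tested on 4 probe sets with 0 called in any comparison. For DNCB+HY209 against sham, Ackr1, found on venous endothelium, differed by -0.62 (SE 0.24, adjusted p = 0.24) and 1 Ackr4 probe set by -0.54 (SE 0.22, adjusted p = 0.255), and neither overlapped.

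Cytokines that induce these chemokines, with their receptors and transcription factors, were listed as well. Of 25 such genes with a probe set 19 were tested on 35 probe sets, and 0 passed in any comparison. Il4, Il13, Ifng, Il17a, Il22 and Il1a did not pass the filter. The largest moderated t was that of the receptor gene Il13ra1, with 2.43 for DNCB against sham (SE 0.48, adjusted p = 0.057).

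The genes whose signal followed Ccl27a most closely over the 8 arrays were Fcgbp (Pearson r = 0.989), the heat shock factor gene Hsf2 (0.981), the procollagen processing enhancer gene Pcolce2 (0.976), the peptidase gene Pgpep1 (0.974) and the aldehyde dehydrogenase gene Aldh3a1 (0.971). These values describe 8 arrays in which the 2 sham arrays stand apart from the rest in Ccl27a. Only tested probe sets with 1 symbol were searched. Hsf2 lay above the array median only on the 2 sham arrays (4.29 and 4.68) and was low on the other 6 (3.49 to 3.77), so it passed the filter only through sham. Aldh3a1 measured 5.64 and 6.88 in sham, 4.22, 4.63 and 4.32 in DNCB, and 4.78, 4.59 and 5.00 in DNCB+HY209. Pgpep1 had the same order of arrays as Ccl27a throughout (Spearman rho = 1), with 4.70 and 5.10 in sham, 4.28, 4.20 and 4.21 in DNCB, and 4.36, 4.39 and 4.53 in DNCB+HY209. For the others rho was lower, at 0.64 for Hsf2, 0.79 for Aldh3a1, 0.83 for Fcgbp and 0.88 for Pcolce2.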

How the data were processed

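The authors deposited log2 signals, 1 column per array. Affymetrix Expression Console and MAS5 are named, without version or order, per the submitters' processing notes; scaling between arrays is not stated there. Detection calls were not used here. The labels name a smaller array than the one whose probe annotation was used here. Of the probe sets, 64 were controls and were left out, 34945 had 1 symbol, 932 several and 9160 were not listed.

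A probe set was kept if it exceeded its array's median on at least 2 of 8 arrays. Groups (sham 2, DNCB 3, DNCB+HY209 3) were compared with limma 3.58.1 (R 4.3.3; lmFit; eBayes, trend by intensity), all arrays fitted together (two-sided; p-values adjusted by Benjamini-Hochberg over 24675 probe sets; threshold 0.05) and, for named alternatives, in refits whose p-values were adjusted over the probe sets of that refit. Probe sets, not genes, were tested, so that those with several symbols were kept. All 10 members are named, further family genes were named if called or, failing that, if groups did not overlap, the genes most like Ccl27a by Pearson r over 8 arrays were named too, and Ccl6, Ccl9 and Il13ra1 were singled out in the text after their values were seen. The members and lists were chosen with earlier results of these data known. The number of arrays limits precision. The fit was tested on simulated data. Figures used Python 3.11.15.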

Additional observations from a re-analysis of the deposited data

How the results depend on the processing

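Over 19 alternatives, which changed normalization, filter, unit, variance model, covariates or the arrays included, the bright Ccl27a probe set kept its direction against sham in each fit that held it. Quantile normalization moved the median difference of all probe sets from 0.11 to -0.01 for DNCB against sham and from 0.15 to 0.0048 for DNCB+HY209 against sham, and the Ccl27a differences became -3.46 and -3.00.

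For DNCB against sham, the count of members called went from 1 to 0 with the replicate number as a block (replicate block, Ccl27a -3.33, adjusted p = 0.0515). It also went to 0 with spike-in signal in the model, and with 1 single-symbol probe set per gene, which drops the shared probe set. It stayed at 1 without each DNCB or DNCB+HY209 array. All probe sets called were 236, against 366 after quantile normalization, 142 after median centring, 20 with the block, 20 with the spike-in level, 519 with the Gapdh ratio, and 11 to 435 without 1 array. For DNCB+HY209 against sham, members called went from 1 to 0 when only the 2 groups were fitted, with the block (Ccl27a -2.82, adjusted p = 0.0998), with the spike-in level and with 1 probe set per gene, and were 0 to 1 without 1 array. All probe sets called were 66, against 141 after quantile normalization, 32 after centring, 24 with only the 2 groups, 8 with the block, 9 with the spike-in level and 6 to 355 without 1 array. For DNCB+HY209 against DNCB the counts were 0 throughout. There Ccl8 turned to -0.20 with the Gapdh ratio and ran from -0.31 to 0.22 without 1 array, and Ccl2 from -0.059 to 0.015.

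The replicate numbers did not pair the arrays: deviations from group means correlated at -0.62 to 0.236 over 7 same-numbered pairs and at -0.657 to 0.612 over 14 others. Where leaving out an array left sham with 1 array, its spread was taken as that of the other groups. Members that failed the filter lay below the array median on all 8 arrays, so they carry no call.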
